A study of Rattus norvegicus with 8 samples.

Results

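A set of 10 genes of the renal brush border, 6 peptidases (Mep1a, Mep1b, Anpep, Dpp4, Ggt1 and Dpep1), 3 endocytic receptor subunits (Lrp2, Cubn and Amn) and the microvillus scaffold Vil1, were compared between male and female rats. They were chosen by gene name, and the probes of the array whose RefSeq accession belonged to them were taken, which gave 12 probes for 10 of 10 genes among the 11827 named genes tested. Dpp4 and Lrp2 had 2 probes each, and the probe with the highest mean signal led. The samples were cortical kidney slices of 4 male and 4 female adult rats of the strain RCCHanTMWIST (Han Wistar), without any treatment, with 1 slice and 1 one-colour array per rat. A slice holds all cell types of the cortex, so that fewer proximal tubule cells and less RNA per cell cannot be told apart in these values. The labels give no age beyond adult and no stage of the female cycle.

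The brush border is the dense coat of microvilli on the apical face of proximal tubule cells. Peptidases anchored in it cut filtered peptides and glutathione down to amino acids and dipeptides, which transporters then take up. Between the microvilli, the receptors megalin (Lrp2) and cubilin (Cubn) bind filtered albumin, vitamin carriers and other proteins and carry them into the cell by endocytosis. Cubilin has no membrane anchor of its own and depends on amnionless (Amn), its partner in the cubam complex, to reach the surface.

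Values are log2 signals from which the 75th percentile of that array was subtracted, so that a difference of 1 is a doubling, and a log2 fold-change is male minus female. The 12 probes were well above background on all 8 arrays, with mean signals from 5510 (Vil1) to 130000 (Lrp2), and no non-control spot of the arrays was saturated. Each probe was fitted with limma together with the other probes tested, 23425 in all, and p was adjusted over all of them by the Benjamini-Hochberg method. The arrays shared 1 slide and 1 scan, and each slide row held 2 male and 2 female arrays. Arrays of the same sex correlated at 0.992 to 0.995 over the tested probes and arrays of different sex at 0.983 to 0.991.

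Of the 10 genes, 3 were higher in females (Mep1b, Dpep1 and Cubn) and 1 was higher in males (Vil1) at an adjusted p below 0.05, and 6 did not pass. Over all probes tested, 4.67% were called higher in females and 3.39% higher in males. With a log2 fold-change of 1 or more in size as a further condition, Mep1b was called higher in females and 0 genes were called higher in males, where 1.09% and 0.798% of all probes were called. Every female lay above every male at 3 genes and every male above every female at 2 genes (Amn and Vil1), against 11.0% and 7.46% of all probes. The median log2 fold-change of the 10 genes was −0.21, that of all probes −0.04, and the median absolute log2 fold-changes were 0.31 and 0.15. With quantile normalization the median of all probes was 0.0024. The 10 genes were picked with results of these arrays known, so these counts describe them and test nothing.

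**Figure D1:**
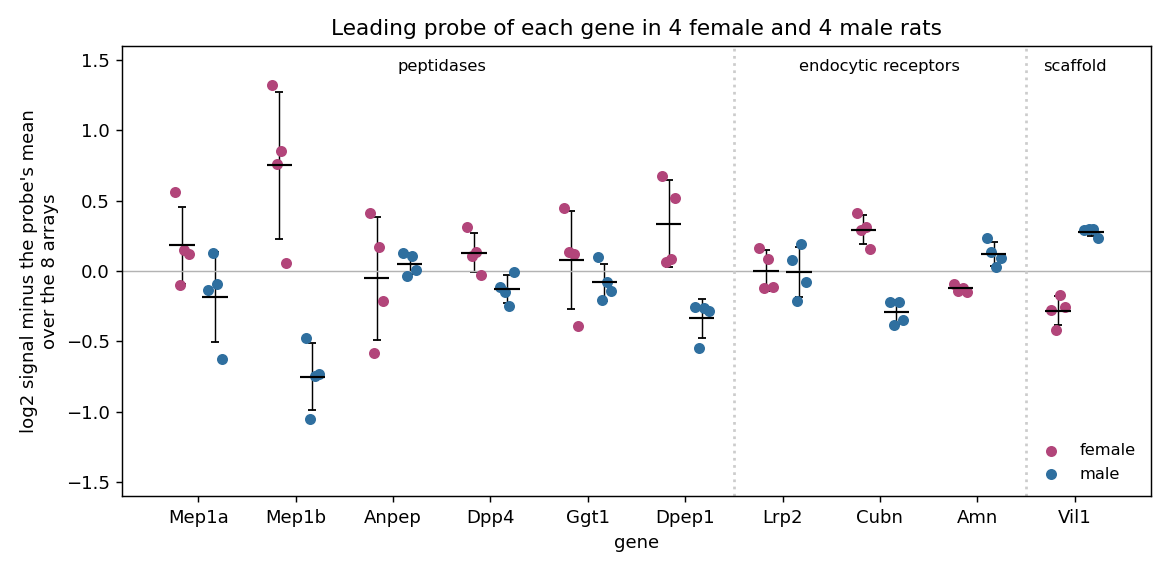
Log2 signal of the leading probe of each gene (y axis, minus the mean of that probe over the 8 arrays) for each of the 10 genes (x axis), with 1 point per rat, a line at the mean of a sex and bars of 1 SD (n = 4). The points of the sexes are apart at Mep1b, Dpep1, Cubn, Amn and Vil1, and mixed at the other 5 genes.

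The 250 bases before the RefSeq transcription start (assembly GRCr8) are shown for the 4 genes that passed the adjusted p, to set their upstream sequences side by side. Each runs 5′ to 3′ on the strand of the gene in lower case, and capitals mark matches to 2 of the 4 motifs searched on both strands, GTTAAT (a single arm of the site of the hepatocyte nuclear factor HNF1) and TTCNNNGAA (the spacing of STAT sites).
Mep1b, chr18:12640791-12641040, plus strand: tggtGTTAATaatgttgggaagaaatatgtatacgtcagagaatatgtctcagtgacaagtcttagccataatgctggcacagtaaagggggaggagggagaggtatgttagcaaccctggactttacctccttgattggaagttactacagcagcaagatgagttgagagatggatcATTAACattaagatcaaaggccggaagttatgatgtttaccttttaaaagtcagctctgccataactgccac
Dpep1, chr19:68127908-68128157, plus strand: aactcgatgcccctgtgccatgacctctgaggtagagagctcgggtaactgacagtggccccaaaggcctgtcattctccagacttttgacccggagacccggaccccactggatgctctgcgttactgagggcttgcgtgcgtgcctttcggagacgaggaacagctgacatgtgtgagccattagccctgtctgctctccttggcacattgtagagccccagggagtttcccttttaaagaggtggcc
Cubn, chr17:81501695-81501944, minus strand: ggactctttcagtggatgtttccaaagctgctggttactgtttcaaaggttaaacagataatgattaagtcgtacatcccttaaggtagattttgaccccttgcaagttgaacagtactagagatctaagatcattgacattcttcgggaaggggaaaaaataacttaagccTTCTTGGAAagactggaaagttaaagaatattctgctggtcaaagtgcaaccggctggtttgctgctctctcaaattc
Vil1, chr9:83439998-83440247, plus strand: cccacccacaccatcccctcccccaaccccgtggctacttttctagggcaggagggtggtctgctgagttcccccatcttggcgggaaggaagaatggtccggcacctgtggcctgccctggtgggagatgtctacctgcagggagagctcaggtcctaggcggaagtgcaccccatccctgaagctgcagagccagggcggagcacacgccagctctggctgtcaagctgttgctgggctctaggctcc

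The Mep1b sequence held 2 GTTAAT matches, 246 to 241 and 72 to 67 bases before the start, the second on the opposite strand. A match to GTTAAT was found in 6.45% of 33465 rat promoters of the same length, and in 2 of the 10 genes, Mep1b and Anpep. Cubn held a TTCNNNGAA match 78 to 70 bases before the start, which 7.67% of promoters and 1 of the 10 genes had. TGTTCT, a single arm of the steroid receptor site, and TATAAA, the TATA box, were present in 17.5% and 12.9% of promoters and in 0 of the 10 genes. The upstream sequences of Cubn (40.0% G and C) and Mep1b (41.6%) were poorer in G and C than the median promoter (51.2%), and those of Dpep1 (57.2%) and Vil1 (64.0%) were richer. These matches describe letters in this window, and binding was not measured.

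Mep1b, the beta subunit of the zinc endopeptidase meprin and its membrane-bound part, had the largest sex difference of the 10 genes. Its log2 signal was 3.50, 2.94, 3.04 and 2.24 in females 1 to 4 and 1.71, 1.13, 1.43 and 1.45 in males 1 to 4. Female 4 was the lowest female, yet it lay 0.53 above male 1, the highest male. The means were 2.93 ± 0.52 in females and 1.43 ± 0.24 in males (SD, n = 4 each), a log2 fold-change of −1.50 (SE 0.25, 95% interval −2.07 to −0.93). Mep1b was 2.83-fold higher in females (95% interval 1.90 to 4.21, limma adjusted p = 0.0107, two-sided exact permutation p = 0.0286, the smallest that 4 against 4 rats allows), and 98.8% of all tested probes differed less. Within the rows of the slide, with 2 rats per sex in each, the log2 fold-changes were −1.06 and −1.94.

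Mep1a, the alpha subunit that beta subunits hold at the membrane, did not pass the test. It reached 3.20, 2.54, 2.79 and 2.76 in females 1 to 4 and 2.51, 2.77, 2.55 and 2.01 in males 1 to 4. The sexes overlapped, with males 2 and 3 above female 2, the lowest female. The means of 2.82 ± 0.28 and 2.46 ± 0.32 (SD, n = 4 each) gave a log2 fold-change of −0.36 (95% interval −0.79 to 0.06, limma adjusted p = 0.265, exact permutation p = 0.143). Its probe had 1 spot per array.

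Dpep1, the renal dipeptidase that splits cysteinylglycine and other dipeptides, was higher in females. Females 1 to 4 had log2 signals of 2.90, 2.28, 2.31 and 2.74, and males 1 to 4 had 1.96, 1.68, 1.95 and 1.94. Females 1 and 4 were the upper pair, the sexes did not overlap, and males 1, 3 and 4 were nearly equal while male 2 lay below them. From means of 2.56 ± 0.31 and 1.88 ± 0.14 (SD, n = 4 each), Dpep1 was 1.59-fold higher in females (95% interval 1.25 to 2.04, log2 fold-change −0.67, SE 0.15, limma adjusted p = 0.0362, exact permutation p = 0.0286). The adjusted p was above 0.05 without female 1 (0.066), without female 4 (0.0773), without any single male (0.0656 to 0.0919), without the filter on dim probes (0.0646) and with the slide row as a block (0.053), at log2 fold-changes from −0.70 to −0.56.

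The other 3 peptidases, Anpep, Dpp4 and Ggt1, did not pass. Anpep, aminopeptidase N, spread widely among females, at 2.38, 1.39, 2.14 and 1.76 in females 1 to 4, while males 1 to 4 had 2.09, 1.94, 2.07 and 1.98. All males lay inside the range of the females, and the SD was 0.43 in females and 0.076 in males. The log2 fold-change was 0.10 (95% interval −0.34 to 0.55, limma adjusted p = 0.783), and it changed sign, to −0.07, without female 2.

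Dpp4, dipeptidyl peptidase 4, which takes dipeptides off peptides with proline or alanine in the second place, had 3.76, 3.55, 3.58 and 3.42 in females 1 to 4 and 3.33, 3.30, 3.20 and 3.44 in males 1 to 4 at its brighter probe. Male 4 lay just above female 4, and every other male lay below every female. The log2 fold-change was −0.26 (95% interval −0.47 to −0.05, limma adjusted p = 0.119, exact permutation p = 0.0571). At the dimmer probe of Dpp4 the ranges were 0.05 to 0.36 in females and −0.01 to 0.26 in males, with a log2 fold-change of −0.13 (95% interval −0.36 to 0.09, limma adjusted p = 0.453).

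Ggt1, gamma-glutamyltransferase, which starts the breakdown of extracellular glutathione, had 4.16, 3.85, 3.83 and 3.32 in females 1 to 4 and 3.81, 3.51, 3.63 and 3.57 in males 1 to 4. All males lay inside the range of the females. The log2 fold-change was −0.16 (95% interval −0.54 to 0.22, limma adjusted p = 0.595), and the rows of the slide gave 0.11 and −0.44. Among the 6 peptidases, 2 were higher in females and 0 in males, against 4.67% and 3.39% of all probes, and the log2 fold-changes ran from −1.50 to 0.10 with a median of −0.31.

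Cubn, the peripheral receptor cubilin, was higher in females with little spread in either sex. Its log2 signal was 3.72, 3.60, 3.62 and 3.46 in females 1 to 4 and 3.08, 2.92, 3.09 and 2.96 in males 1 to 4. The lowest female lay 0.38 above the highest male. Means of 3.60 ± 0.10 and 3.01 ± 0.08 (SD, n = 4 each) gave a log2 fold-change of −0.59 (SE 0.08, 95% interval −0.77 to −0.41), which is 1.50-fold higher in females (limma adjusted p = 0.00452, exact permutation p = 0.0286). The rows of the slide gave −0.52 and −0.65.

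Amn, the transmembrane partner of cubilin, lay in the opposite direction but did not pass. Females 1 to 4 had 3.77, 3.72, 3.75 and 3.72, and males 1 to 4 had 4.10, 4.00, 3.89 and 3.96. Every male lay above every female, with a gap of 0.12 between the sexes. The means were 3.99 ± 0.09 in males and 3.74 ± 0.02 in females (SD, n = 4 each), a log2 fold-change of 0.25 (SE 0.07, 95% interval 0.10 to 0.40, 1.19-fold). The Amn probe had 10 spots per array, and 2 outlier spots in all over the 8 arrays were left out. The limma adjusted p was 0.0585 and the exact permutation p 0.0286. In 5 alternative settings the adjusted p fell below 0.05, at 0.0199 with quantile normalization, 0.0201 with the log2 values of the authors, 0.0449 with another background correction, 0.0232 with an intensity trend and robust prior and 0.0461 with array weights. It stayed above 0.05 in the other 14 of 19 settings, among them each fit with 1 rat left out (0.062 to 0.129).

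Lrp2, the giant receptor megalin with which cubilin works, had 4.61, 4.32, 4.53 and 4.33 in females 1 to 4 and 4.52, 4.23, 4.64 and 4.37 in males 1 to 4 at its brighter probe. The sexes were interleaved. The log2 fold-change was −0.01, with a 95% interval from −0.26 to 0.25, or 0.833-fold to 1.19-fold of males over females (limma adjusted p = 0.974, exact permutation p = 0.971). The dimmer probe ranged from 3.37 to 3.59 in females and from 3.23 to 3.69 in males, with a log2 fold-change of 0.02 (95% interval −0.22 to 0.26, limma adjusted p = 0.918).

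Vil1, villin, which bundles the actin filaments of the microvillus core, was the gene of the set that was higher in males by the adjusted p. Its log2 signal was −0.43, −0.57, −0.32 and −0.40 in females 1 to 4 and 0.14, 0.15, 0.15 and 0.09 in males 1 to 4. The 4 males lay close together, and the lowest of them was 0.41 above the highest female. Means of 0.13 ± 0.03 and −0.43 ± 0.10 (SD, n = 4 each) gave a log2 fold-change of 0.56 (SE 0.07, 95% interval 0.40 to 0.72), which is 1.48-fold higher in males (limma adjusted p = 0.0034, exact permutation p = 0.0286). The rows of the slide gave 0.48 and 0.65.

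**Figure D2:**
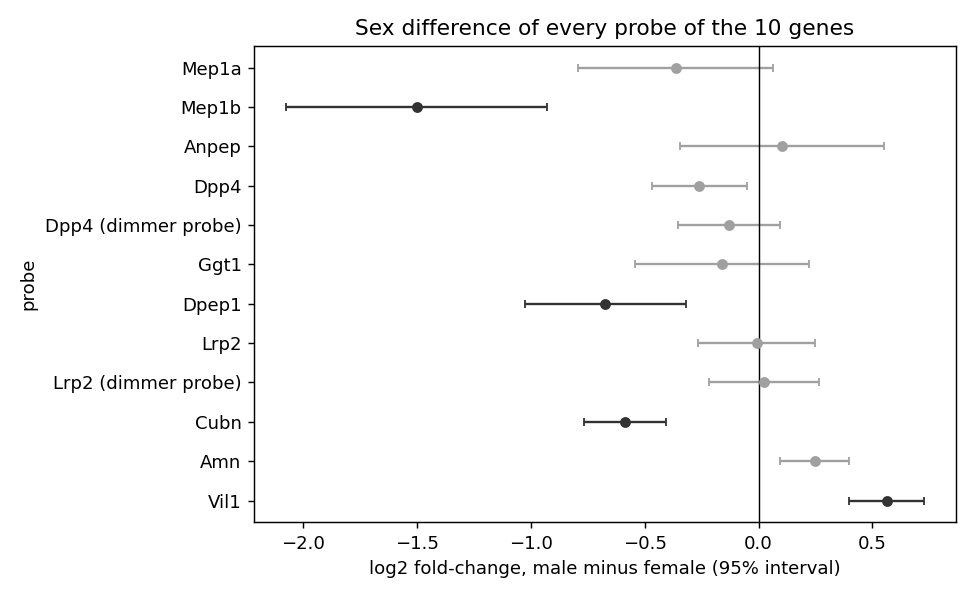
Log2 fold-change, male minus female (x axis), of each of the 12 probes (y axis), with its 95% interval, black where the limma adjusted p was below 0.05. Mep1b, Dpep1 and Cubn lie left of 0 (higher in females) at −1.50, −0.67 and −0.59, Vil1 lies right of it at 0.56, and both probes of Lrp2 lie near 0.

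Genes whose proteins work together were next compared by their RNA signals within each rat, which asks whether partners had unequal sex differences. Protein was not measured. The difference between the log2 signals of 2 leading probes was taken in each rat and centred on its mean over the 8 rats, for 3 pairs, with an exact permutation test of males against females adjusted over the 3 pairs. For the cubam subunits, Cubn minus Amn, the centred differences were 0.50, 0.43, 0.43 and 0.30 in females 1 to 4 and −0.46, −0.52, −0.25 and −0.44 in males 1 to 4. Every female lay above 0 and every male below it, and the ratio of Cubn to Amn was 1.78-fold higher in females (difference −0.83 on the log2 scale, exact permutation p = 0.0286, adjusted p = 0.0286). The sexes did not overlap at Cubn or at Amn, in opposite directions. The p of this pair was thus fixed by the single-gene values and adds nothing to them. The genes of all 3 pairs were picked with results of these arrays known.

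For the receptors Cubn and Lrp2, females 1 to 4 had 0.24, 0.41, 0.23 and 0.27 and males 1 to 4 had −0.30, −0.17, −0.41 and −0.27. The sexes were again on opposite sides of 0, and the ratio of Cubn to Lrp2 was 1.49-fold higher in females (difference −0.58, exact permutation p = 0.0286, adjusted p = 0.0286). For the meprin subunits, Mep1b minus Mep1a, females 1 to 4 had 0.77, 0.86, 0.71 and −0.06 and males 1 to 4 had −0.34, −1.18, −0.65 and −0.10. Female 4 lay close to male 4, the highest male, and the other 3 females stood well above both. The ratio of Mep1b to Mep1a was 2.20-fold higher in females (difference −1.14, exact permutation p = 0.0286, adjusted p = 0.0286). All 3 pairs were at the smallest p that 4 against 4 rats allow, so the adjustment left p unchanged. Leaving out any single rat among females 1 and 2 and males 1 to 4 gave an exact permutation p of 0.0571 for the meprin pair, with differences from −1.29 to −0.93.

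**Figure D3:**
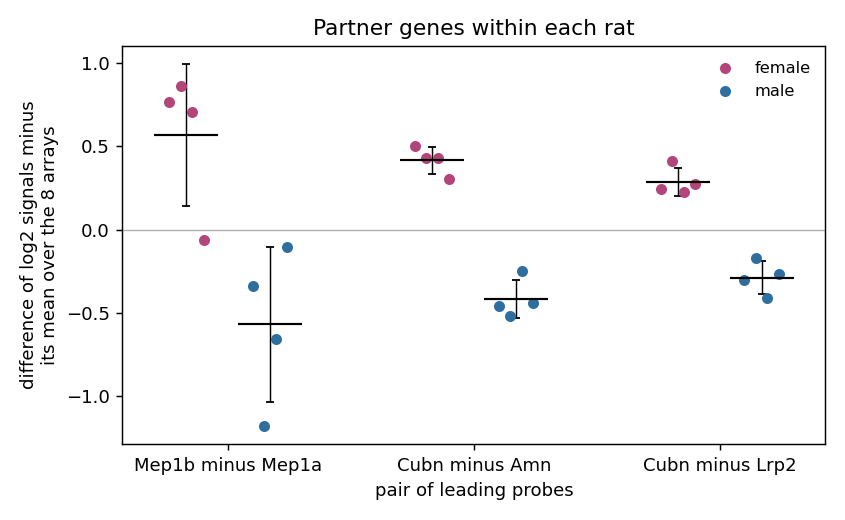
Difference between the log2 signals of 2 partner probes in each rat, minus its mean over the 8 rats (y axis), for 3 pairs (x axis), with a line at the mean of a sex and bars of 1 SD (n = 4). The females lie above the males at all 3 pairs, narrowly at the meprin subunits, where female 4 has −0.06 and male 4 has −0.10.

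Other genes of the same structures were counted by their leading probe from 3 lists, of which 27 genes were tested. At an adjusted p below 0.05, 3 genes were called toward males and 0 toward females, where 3.39% and 4.67% of all probes were called. Of 9 other brush border peptidases, 8 were tested, 1 was higher in males (Enpep), 0 were higher in females, and the median log2 fold-change was −0.19. Of 13 other genes of apical endocytosis, 11 were tested, 1 was higher in males (Dab2), 0 were higher in females, and the median was 0.13. Of 12 other genes of microvillus structure, 8 were tested, 1 was higher in males (Ush1c), 0 were higher in females, and the median was −0.02. Among the listed genes with a further probe, that of Espn, the actin bundler espin, differed from the leading one and was noted after its values were seen. The leading probe of Espn, with a mean signal of 7570, had a log2 fold-change of 0.15 (SE 0.09, limma adjusted p = 0.353), and the dimmer one, with a mean signal of 41.4, had 1.11 (SE 0.26, limma adjusted p = 0.0393).

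Enpep, aminopeptidase A, which trims angiotensin II, had 2.51, 2.45, 2.60 and 2.31 in females 1 to 4 and 2.99, 2.94, 2.98 and 2.94 in males 1 to 4. The sexes did not overlap, and Enpep was 1.41-fold higher in males (log2 fold-change 0.50, SE 0.07, limma adjusted p = 0.00725). Dab2, the clathrin adaptor that binds the tail of megalin, had 2.73, 2.68, 2.75 and 2.64 in females 1 to 4 and 3.19, 3.16, 3.13 and 3.02 in males 1 to 4. Every male lay above every female, and Dab2 was 1.34-fold higher in males (log2 fold-change 0.43, SE 0.07, limma adjusted p = 0.00835). Its dimmer probe gave 0.59 (limma adjusted p = 0.00616).

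Ush1c, the scaffold harmonin at the tips of microvilli, had 0.47, 0.18, 0.35 and 0.25 in females 1 to 4 and 0.72, 0.59, 0.62 and 0.59 in males 1 to 4. It was 1.25-fold higher in males (log2 fold-change 0.32, SE 0.08, limma adjusted p = 0.0492), a call that was lost in 10 of 18 alternative settings, 7 of them without female 2, 3 or 4 or any single male (highest adjusted p 0.116). Mme, neprilysin, was singled out after its values were seen. Its log2 signal was 2.66, 2.30, 2.21 and 1.57 in females 1 to 4 and 1.87, 0.60, 0.49 and 0.94 in males 1 to 4. Male 1 lay above female 4, and the log2 fold-change of −1.21 (95% interval −1.98 to −0.45) had a limma adjusted p of 0.0634. The adjusted p of Mme stayed above 0.05 in 15 of 18 alternative settings, at up to 0.145. In the other 3 it was 0.0196 without male 1, 0.0466 without female 4 and 0.038 with another background correction. Folh1, a further peptidase of the list, was also noted after its values were seen. It ranged from 1.418 to 1.788 in females and from 1.09 to 1.335 in males. Its log2 fold-change was −0.36 (limma adjusted p = 0.0638, exact permutation p = 0.0286).

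**Figure D4:**
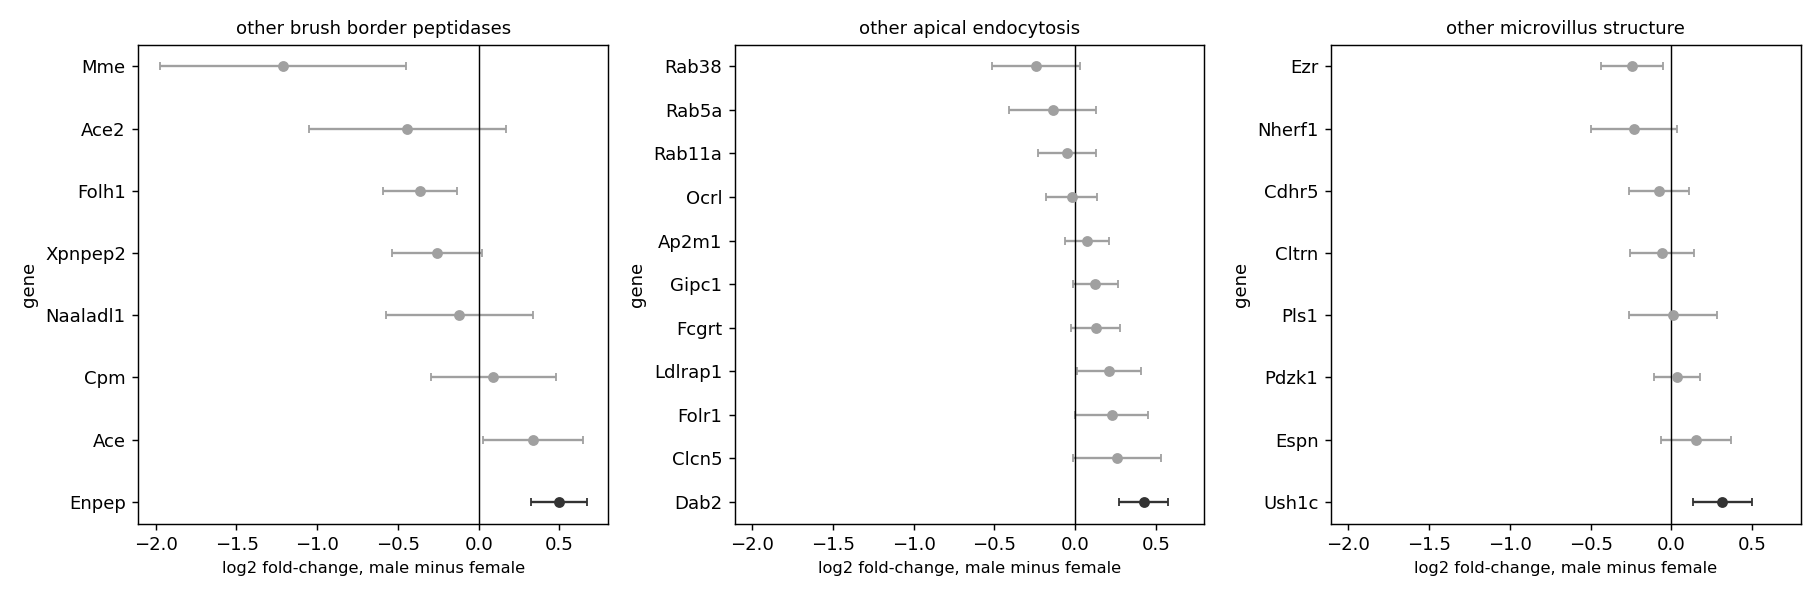
Log2 fold-change, male minus female (x axis), with its 95% interval, for the tested genes (y axis) of 3 lists of other peptidases, endocytosis genes and microvillus genes, black where the limma adjusted p was below 0.05. Enpep (0.50), Dab2 (0.43) and Ush1c (0.32) are called, all higher in males, and Mme at −1.21 has the widest interval.

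The 5 genes whose pattern over the 8 arrays was most like that of Mep1b, by the root mean square distance of centred log2 values among 11826 other named genes, were Akr1c2 (distance 0.13, log2 fold-change −1.47), Slc23a3 (0.13, −1.55), Gng13 (0.17, −1.35), Slc5a10 (0.21, −1.49) and Septin4 (0.21, −1.17). They were found by their likeness to a gene that differed by sex, so their own differences are a description.

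Markers of the cell types of the cortex were read beside these results. All 8 proximal tubule markers were tested, 0 were called, and their median log2 fold-change was 0.05. Their summed signal, in multiples of the 75th percentile, was 234 to 253 in females and 228 to 269 in males, with overlap, and the part of tubule content in the results was not tested. Of 5 markers of proximal tubule segment 3, 1 was called, Slc22a7 (organic anion transporter 2), which was 34.8-fold higher in females (log2 fold-change −5.12, limma adjusted p = 0.000238). The other 4 had log2 fold-changes of −0.90 (Slc7a13), −0.27 (Slc3a1), −0.06 (Atp11a) and 0.02 (Slc27a2), with limma adjusted p from 0.0639 to 0.943. The summed signal of the 5 was 89.0 to 128 in females and 84.1 to 94.1 in males. Each of the 5 markers was lowest among females in female 4, Slc22a7 at 0.13 against 1.28 to 1.58 in the others. Female 4 also had the lowest Mep1b and Mme of the females, while its Dpep1 (2.74) was the second highest. It was the lowest female at 5 of the 10 genes (Mep1b, Cubn, Dpp4, Ggt1 and Amn) and at 30.3% of all tested probes. The part of segment 3 in the results on Mep1b and Dpep1 was not tested.

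Among markers of other cells, 1 of 3 tested for the thick ascending limb (Cldn16, −0.62, limma adjusted p = 0.0287) and 1 of 5 for podocytes (Podxl, −0.27, limma adjusted p = 0.0354) were higher in females. The Cldn16 call was lost without any single rat among the females and males 2 and 3 (highest adjusted p 0.0774). That of Podxl was lost without any single rat among the females and males 2 to 4 (highest adjusted p 0.0903). Without the filter on dim probes both calls were lost (adjusted p 0.0531 for Cldn16 and 0.0685 for Podxl). With the replicate number as a block, Podxl had an adjusted p of 0.0957. The summed signal of the limb markers was 57.7 to 65.3 in females and 47.5 to 55.3 in males, and that of the podocyte markers was 12.2 to 13.0 and 10.5 to 11.0, each without overlap. Of the 2 distal convoluted tubule, 7 collecting duct, 5 endothelial and 6 leukocyte markers tested, 0 were called. Summed signals in females and males were 49.5 to 63.8 and 41.8 to 54.1 for the collecting duct, 13.4 to 21.0 and 13.3 to 17.5 for the distal convoluted tubule, 12.1 to 13.4 and 11.6 to 12.8 for endothelium, and 0.44 to 0.796 and 0.655 to 0.898 for leukocytes. Their part in the sex differences of the 10 genes was not tested.

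The direction of the 4 called genes held in each of 19 alternative settings, but in several of these it could not change. Each of the 4 genes had 1 probe and no outlier spots. Other filters, kept outlier spots, the intensity trend, the blocks and the mean over probes thus left their log2 fold-changes as reported. Mep1b passed in all 19, at 2.48-fold to 3.32-fold, as did Cubn (log2 fold-change −0.63 to −0.55) and Vil1 (0.52 to 0.60). Dpep1 passed in 11 of 19.

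**Figure D5:**
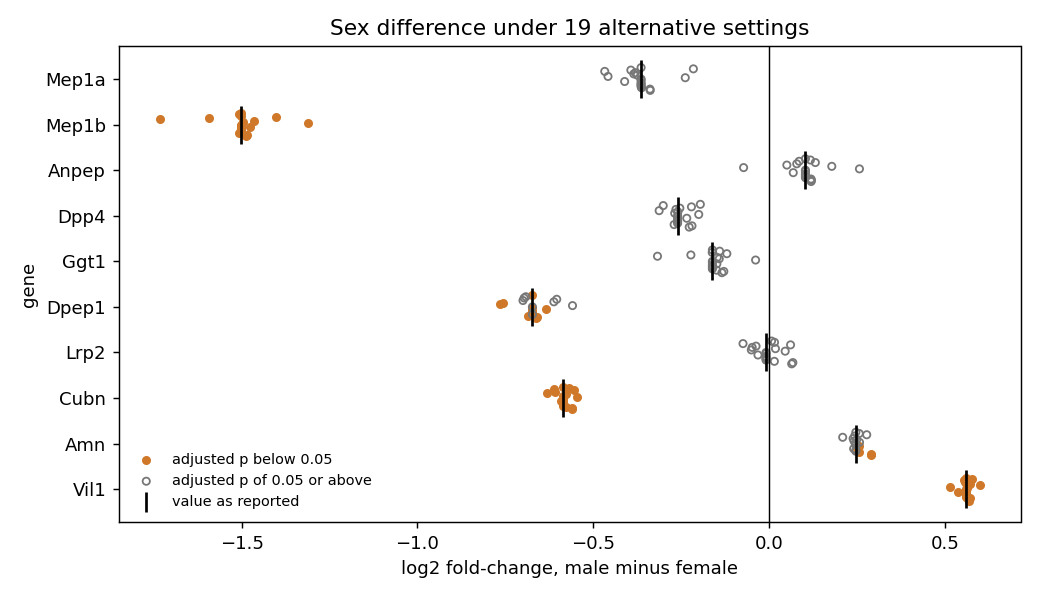
Log2 fold-change, male minus female (x axis), of each of the 10 genes (y axis) under 19 alternative settings, filled where the adjusted p was below 0.05, with a black bar at the reported value. The points of Mep1b, Cubn and Vil1 are filled throughout, those of Dpep1 and Amn are mixed, and those of Lrp2 lie on both sides of 0.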

How the data were processed

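RNA of kidney cortex from 4 male and 4 female rats was measured on 8 arrays, which were grouped by the sex and replicate in their labels. The signal intensity of each spot was deposited by the authors as background-subtracted output of Agilent Feature Extraction 10.7.3.1, per the file headers, with no normalization between arrays. The deposited log2 table of the authors had the same distribution on every array. Their notes name limma 3.8.2. The genome build of the probe design was not used here.

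Outlier spots were left out, the 75th percentile of non-control spots was subtracted from log2 intensity, and each probe was given the mean of its spots. Probes that were well above background on 4 or more of the 8 arrays (23425) were fitted in limma 3.58.1 (lmFit and eBayes, R 4.3.3) as male minus female without covariates. Calls needed an adjusted p below 0.05, with a log2 fold-change of 1 or more in size where stated. Intervals are 95%. Single values were compared by exact permutation of the rats, two-sided. Python 3.11.15, pandas 2.3.3 and matplotlib 3.10.9 were used for the rest. The fit was tested on simulated data.

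Probes were named by RefSeq accession (17514 of 30367). The members and lists were chosen with earlier results of these data known. The text names every member, the other listed genes and markers that passed the adjusted p, and the 5 genes nearest to a member past both thresholds. Alternatives were quantile normalization, the log2 values of the authors, normexp (offset 50, on median signals, since mean signals were not among the columns used), other filters, an intensity trend, array weights, the replicate number or slide row as a block, each rat left out, and the mean over the probes of a gene. The alternatives for Enpep, Dab2, Ush1c, Mme and the called markers were chosen after seeing the data. The precision is limited by the number of arrays (4 for each sex), and 73.8% to 79.1% of the probes of an array were well above background. Probe sequences, and so hybridization to related genes, were not analysed here.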

Additional observations from a re-analysis of the deposited data

Results flagged for a closer look

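Among 24 groups of 4 rats, a probe and a sex each, 1 held a rat that stood apart from the others by Dixon's criterion. It was male 2 at Dpep1, with a log2 signal of 1.68 beside 1.94 to 1.96 in the other 3 males. Chance alone would mark about 1 in 20 groups. Without male 2 the log2 fold-change of Dpep1 was −0.60 (limma adjusted p = 0.0919).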

How the results depend on the processing

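Over the 10 genes and 19 alternative settings, 168 of 190 values kept their direction and their side of the threshold, 5 passed where the reported value had not (all of Amn), 8 no longer passed (all of Dpep1) and 9 changed sign (8 of Lrp2 and 1 of Anpep). Other filters, the intensity trend and the blocks left every log2 fold-change as reported, so only the adjusted p could move there. The log2 fold-change of Lrp2 was 0.0648 with quantile normalization, 0.0682 with the log2 values of the authors, 0.0155 with normexp and 0.0075 as the mean over its probes, and −0.0737 to 0.0616 with 1 rat left out, where its adjusted p was 0.751 to 0.956. Anpep ranged from −0.0720 to 0.258 with 1 rat left out. The number of genes higher in males was 2 with quantile normalization, 2 with the log2 values of the authors, 2 with normexp, 2 with an intensity trend and 2 with array weights, and 1 in the other settings, and the number higher in females was 2 or 3 with 1 rat left out. The Mep1b to Mep1a difference was −1.35 to −0.93 with 1 rat left out. The cause of these shifts was not tested.

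Rats of the same replicate number deviated together with correlations of 0.126, 0.0429, −0.00831 and 0.116, so the numbers were not taken as pairs. With the replicate number as a block, 3 of the 10 genes were higher in females and 1 in males, Mep1b had an adjusted p of 0.0256 at a log2 fold-change of −1.50, and 1030 probes passed the adjusted p. Over all probes, 795 passed as higher in males and 1094 as higher in females as reported, and 1012 to 2466 passed in all in the alternative settings. At both thresholds the reported split was 187 probes toward males and 256 toward females, against 223 and 221 with quantile normalization and 223 and 223 with the log2 values of the authors. The SE of the log2 fold-change ran from 0.07 (Amn) to 0.25 (Mep1b), so that the difference that 4 rats per sex could show was not equal between the genes. The median log2 fold-change of all probes was −0.04 as reported and −0.064 with normexp. It was 0.0024 with quantile normalization and 0.0017 with the log2 values of the authors.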

Other observations

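Female 1 had the highest value among the females at 9 of the 10 genes, against 30.2% of all tested probes, and male 2 had the lowest value among the males at 6 of the 10 genes, against 18.9% of all tested probes. Females 2 and 4 were the lowest female at 5 genes each.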
